A study of Mus musculus with 6 samples.

Results

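The amino acid transporter genes described here are the 56 rows of the deposited count table whose symbols belong to the solute carrier families Slc1, Slc3, Slc6, Slc7, Slc36, Slc38 and Slc43, of 30445 rows in all. The rows were taken by symbol alone, but the families were chosen with earlier results of these data known. The families hold 7, 2, 16, 13, 4, 11 and 3 rows in that order, and 256 further rows carry other Slc symbols. All cells were wild type mouse cells, and messenger RNA was sequenced in 2 libraries of each of 3 groups: induced macrophages (iMac), MCC, which the labels spell out as a myeloid-like cell complex, and embryonic fibroblasts (MEF). Going by the series title, c-Myc was the factor that turned fibroblasts into macrophages. The sources used here do not give how the iMac and MCC were made, the age of the cells or the relation of MCC to iMac, and nothing says that libraries of a group came from separate cultures. P-values therefore measure only the spread between these libraries, which may be technical.

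Amino acids cross membranes on carriers, and a cell's choice of carriers sets which amino acids it can take up, give out or hold in its lysosomes. Most Slc7 carriers are light chains that reach the cell surface only when bound to a glycoprotein heavy chain, Slc3a2 (CD98) or Slc3a1 (rBAT), and they work as exchangers. Slc1 carriers move glutamate or small neutral amino acids with sodium, and Slc38 carriers move glutamine and other neutral amino acids. Some Slc36 carriers run on protons, and Slc43 carriers are facilitators. Slc6 carriers include those of taurine, creatine, glycine, betaine and neurotransmitters. Macrophages are known for arginine, glutamine and cystine uptake that shifts with activation, and for export of amino acids from lysosomes after digestion of engulfed material. The 7 families also hold a few carriers whose main substrate is not an amino acid, among them Slc6a8 (creatine) and Slc43a3 (purine bases).

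The promoters of 7 members are printed because they include strong rises and falls described here and carriers that work in the lysosome. Each run is RefSeq sequence of build GRCm38.p6, 5′ to 3′ in the sense of the gene, from 250 bases before to 10 bases after the annotated start, and 40 of the 56 members had a promoter in the table. Capitals mark matches, on either strand, to 4 motifs: the amino acid response element TGATGNAA bound by Atf4 with C/EBP factors, the E-box CACGTG bound by Myc with Max and by the lysosomal regulators of the Tfeb group, the antioxidant response element TGACNNNGC, and the PU.1 site GAGGAAGT. Slc7a7 has 5 annotated starts and Slc43a2 has 2, of which 1 is shown for each.
Slc7a11 (chr3:50443604-50443863, minus strand): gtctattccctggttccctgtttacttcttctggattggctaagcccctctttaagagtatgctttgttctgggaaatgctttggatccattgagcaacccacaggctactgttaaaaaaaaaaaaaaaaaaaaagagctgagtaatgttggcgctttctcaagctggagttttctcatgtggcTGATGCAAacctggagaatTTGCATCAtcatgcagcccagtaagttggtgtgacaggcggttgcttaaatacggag
Slc1a4 (chr11:20332704-20332963, minus strand): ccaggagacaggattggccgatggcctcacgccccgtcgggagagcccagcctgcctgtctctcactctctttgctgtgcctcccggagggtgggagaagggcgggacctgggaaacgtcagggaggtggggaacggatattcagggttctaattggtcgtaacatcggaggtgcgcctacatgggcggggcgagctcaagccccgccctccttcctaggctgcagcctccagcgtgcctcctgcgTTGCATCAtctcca
Slc7a7 (chr14:54417935-54418194, minus strand): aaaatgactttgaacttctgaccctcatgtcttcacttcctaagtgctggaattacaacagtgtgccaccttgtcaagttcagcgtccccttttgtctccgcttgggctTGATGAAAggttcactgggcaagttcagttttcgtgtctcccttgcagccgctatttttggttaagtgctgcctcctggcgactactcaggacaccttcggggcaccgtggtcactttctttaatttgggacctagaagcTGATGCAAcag
Slc36a1 (chr11:55204090-55204349, plus strand): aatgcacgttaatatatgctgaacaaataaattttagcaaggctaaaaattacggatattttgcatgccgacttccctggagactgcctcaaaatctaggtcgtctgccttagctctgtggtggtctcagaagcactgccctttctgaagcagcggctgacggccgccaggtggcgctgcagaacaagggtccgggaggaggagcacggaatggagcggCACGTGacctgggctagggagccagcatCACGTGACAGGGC
Slc38a7 (chr8:95853482-95853741, minus strand): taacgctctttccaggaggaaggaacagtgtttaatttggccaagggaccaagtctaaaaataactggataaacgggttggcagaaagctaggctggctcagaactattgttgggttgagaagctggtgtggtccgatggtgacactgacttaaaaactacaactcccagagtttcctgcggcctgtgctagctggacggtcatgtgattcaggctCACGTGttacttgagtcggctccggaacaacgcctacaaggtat
Slc43a2 (chr11:75531444-75531703, plus strand): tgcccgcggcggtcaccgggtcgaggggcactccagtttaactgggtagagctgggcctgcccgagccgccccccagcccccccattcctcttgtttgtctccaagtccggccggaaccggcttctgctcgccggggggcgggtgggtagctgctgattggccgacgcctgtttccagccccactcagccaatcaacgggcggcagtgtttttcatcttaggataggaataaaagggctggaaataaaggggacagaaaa
Slc7a8 (chr14:54781877-54782136, minus strand): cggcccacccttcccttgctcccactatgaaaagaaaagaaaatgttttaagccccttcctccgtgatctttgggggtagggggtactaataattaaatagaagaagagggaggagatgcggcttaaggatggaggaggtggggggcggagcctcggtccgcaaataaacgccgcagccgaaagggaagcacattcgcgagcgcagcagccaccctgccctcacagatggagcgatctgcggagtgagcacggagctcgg
The cystine carrier gene Slc7a11 held 2 copies of the amino acid response element, which began 66 and 47 bases before the start, and Slc1a4 held 1 that began 4 bases before it. Slc7a7 held 2 in the window shown, and it was the third and last member with a match. The 40 members with a promoter have 59 windows, since some have several starts; 4 of the 59 held the element, against 3.59% of all 32851 promoter windows. The E-box stood in 9 of the 59 and in 6.34% of all windows. Slc36a1 held 2, which began 31 and 3 bases before the start, and the second overlaps its match to the antioxidant element. Slc38a7 held 1, which began 34 bases before the start. No match to any of the 4 motifs lay in the windows shown for Slc43a2 and Slc7a8. The antioxidant element stood in 11 of the 59 windows and in 10.7% of all windows, and the PU.1 site in 1 of the 59, that of Slc43a1, and in 2.6% of all windows. These matches describe letters in these windows and were not tested for use.

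Counts summed to between 34389817 and 39174367 per library, and levels are given as counts per 1000000 of the scaled library total (CPM). The check of the labels by markers gave 10 of 10 macrophage markers called higher in iMac and in MCC than in MEF, with summed levels of 19900 to 23630 CPM in iMac, 12900 to 13350 CPM in MCC and 8.81 to 12.7 CPM in MEF. Fibroblast markers summed to 11.5 to 14.5 CPM in iMac and 8103 to 19420 CPM in MEF, and the MCC libraries differed, with 868 CPM in library 1 and 76.0 CPM in library 2. All 10 fibroblast markers were higher in MCC library 1 than in MCC library 2. In bulk RNA, fewer cells of a type and less RNA per cell cannot be told apart. Neural and glial markers summed to 2.24 to 2.68 CPM in iMac, 3.40 to 14.2 CPM in MCC and 195 to 208 CPM in MEF, and skeletal muscle markers to 1.58 to 2.93, 7.38 to 29.3 and 24.7 to 145 CPM in the same order. Markers of mast cells, lymphocytes and epithelium stayed under 12 CPM in every library. Those of granulocytes summed to 115 to 117 CPM in iMac, 72.3 to 90.9 CPM in MCC and 0.271 to 0.567 CPM in MEF. Of these, Mpo and Ly6g had no counts in any iMac or MCC library. Of the 3 granulocyte markers tested, 2 were called higher in iMac and 2 in MCC, each against MEF. Osteoclast markers summed to 147 to 189 CPM in iMac, 145 to 202 CPM in MCC and 59.5 to 61.8 CPM in MEF. Endothelial markers summed to 42.6 to 55.1, 28.7 to 32.5 and 13.6 to 19.8 CPM in the same order. Erythroid markers summed to at most 12.5 CPM in any library.

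Of the 56 genes, 29 reached a mean of 10 CPM in at least 1 group, 10 lay between 1 and 10 CPM and 17 stayed under 1 CPM. A filter on low counts left 43 for testing. In iMac against MEF, 15 of the 43 were called higher and 21 lower at an adjusted p under 0.05, where 25.1% of all 18613 genes tested were called higher and 32.4% lower (57.6% in all). In MCC against MEF, 18 were called higher and 16 lower, where 23.4% of all genes were called higher and 29.6% lower (53.0% in all). The share of tested members called was 83.7% and 79.1% in these comparisons, and that of the 201 other Slc genes tested was 68.2% and 66.7%. The median log2 fold change of the members was 0.02 in iMac against MEF and 0.04 in MCC against MEF, beside medians of -0.06 and -0.05 over all genes. These comparisons share the MEF libraries. In iMac against MCC, edgeR called 0 members, where 0.0107% of all genes were called higher and 0.0107% lower (0.0215% in all). At an unadjusted p under 0.05 it counted 4 higher and 13 lower. DESeq2 called 4 higher and 12 lower of 38 members with an adjusted p, and 2560 genes over the whole table. The matching shares of all genes are not given here, so these counts cannot be read as particular to the members.

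**Figure D1:**
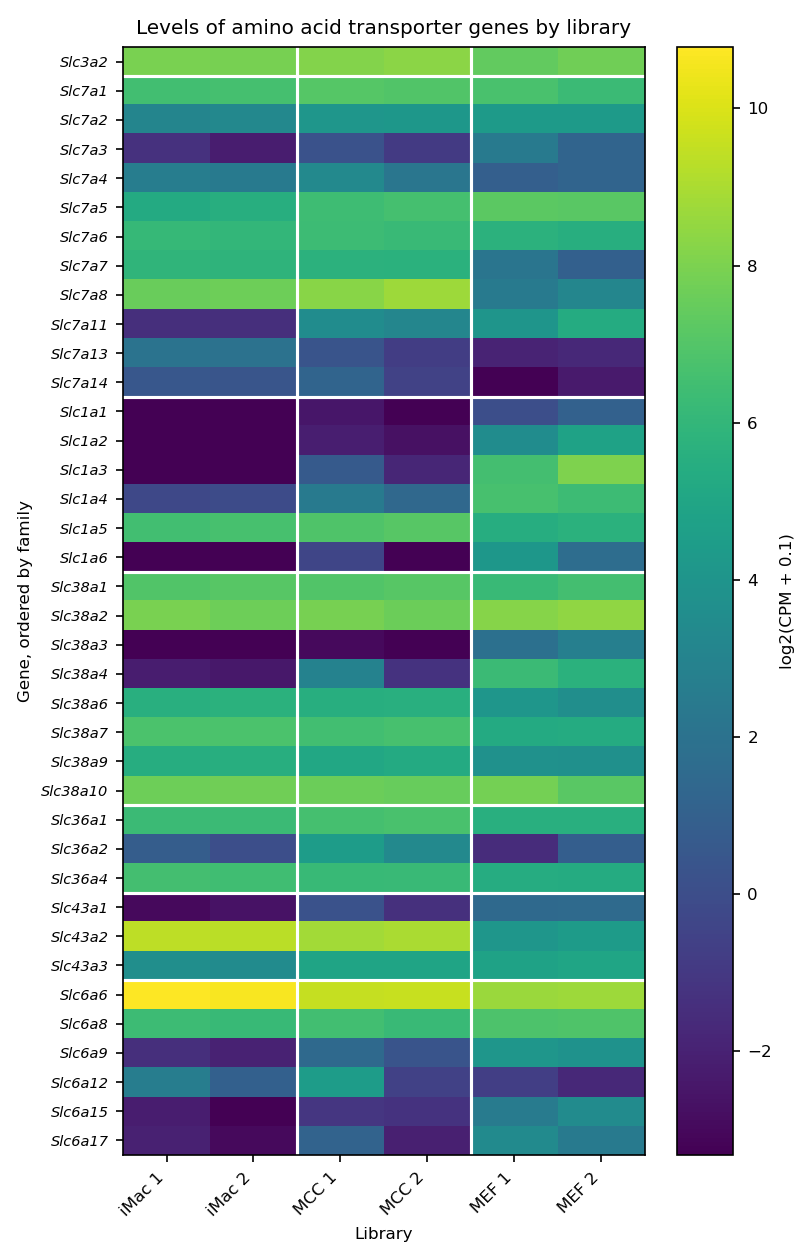
Level of 38 transporter genes that reached a mean of 1 CPM in at least 1 group, as log2(CPM + 0.1), with genes down the page by family and the 6 libraries across. Yellow is high and dark blue is low: Slc1a3 and Slc7a11 are dark in iMac and lighter in MEF, and Slc43a2, Slc7a8 and Slc7a7 show the opposite pattern.

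The number of calls depended on which libraries entered the fit, mostly among members that were lower. The matching counts over all genes are not given here, so this cannot be read as particular to the members. In iMac against MEF, leaving out iMac library 1 or iMac library 2 left 11 higher and 11 lower. In MCC against MEF, leaving out MEF library 1 left 10 members called lower and leaving out MEF library 2 left 7. Leaving out MCC library 2 or either iMac library left 9, and leaving out MCC library 1 left 15. Of the 18 members higher in MCC than in MEF, 7 were higher in MCC library 1 than in MCC library 2. Of the 16 members lower in MCC than in MEF, 14 were. Fibroblast markers also differed in this library pair. The part of those markers in the result was not tested. Of the 36 members called in iMac against MEF, 22 (11 higher, 11 lower) kept their call with every scaling, test, block and left-out library tried, and of the 34 called in MCC against MEF, 20 (13 higher, 7 lower) did so, with the 5 CPM filter, which removes members, set aside.

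Slc3a2, the heavy chain that carries the large neutral, cationic and cystine exchangers to the surface, had 246 and 233 CPM in iMac, 288 and 325 CPM in MCC and 166 and 208 CPM in MEF. It was highest in MCC, where it rose by 0.71 ± 0.14 on the log2 scale over MEF (SE; adjusted p = 0.0128; all adjusted p-values are Benjamini-Hochberg values from edgeR unless DESeq2 is named). In iMac its log2 fold change over MEF was 0.36 ± 0.14 and did not pass (adjusted p = 0.0828), although the libraries did not overlap; it passed without MEF library 2 (adjusted p = 0.0201). The other heavy chain, Slc3a1, known from kidney and gut, had at most 0.258 CPM in any library and was not tested.

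Slc7a5 and Slc7a8 encode the large neutral carriers LAT1 and LAT2, which both bring in leucine and other essential amino acids, and they went in opposite directions. Slc7a5 had 40.0 and 46.6 CPM in iMac, 85.0 and 99.0 CPM in MCC and 147 and 142 CPM in MEF. The 3 groups did not overlap, and the level was lowest in iMac. Slc7a5 fell by 1.74 on the log2 scale in iMac against MEF (SE 0.13; adjusted p = 0.000746) and by 0.65 in MCC against MEF (SE 0.12; adjusted p = 0.0113). Slc7a8 had 191 and 206 CPM in iMac, 304 and 429 CPM in MCC and 5.31 and 8.86 CPM in MEF. Every iMac and MCC library lay far above both MEF libraries. Slc7a8 rose by 4.81 ± 0.33 on the log2 scale in iMac (adjusted p = 0.000654) and by 5.69 ± 0.35 in MCC (adjusted p = 0.000583), which are fold changes of 28.0 and 51.7 over MEF.

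The exchangers of cationic for neutral amino acids were higher in both myeloid groups. Slc7a7 encodes y+LAT1, which exports arginine and lysine in exchange for neutral amino acids and whose loss in humans causes lysinuric protein intolerance, a disease with macrophage involvement. It had 58.9 and 58.1 CPM in iMac, 53.0 and 51.1 CPM in MCC and 4.42 and 1.88 CPM in MEF. The rise over MEF was 4.22 ± 0.42 on the log2 scale in iMac (adjusted p = 0.00169) and 4.05 ± 0.42 in MCC (adjusted p = 0.00226). Its sister Slc7a6, y+LAT2, had 70.1 and 65.4 CPM in iMac, 81.0 and 76.0 CPM in MCC and 52.5 and 45.9 CPM in MEF. The change was small, 0.46 ± 0.11 in iMac (adjusted p = 0.0179) and 0.67 ± 0.11 in MCC (adjusted p = 0.00721). The iMac call was lost without MEF library 2, iMac library 1 or iMac library 2, at adjusted p from 0.0812 to 0.119.

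Slc7a11 encodes xCT, the light chain that imports cystine for glutathione synthesis in exchange for glutamate, and its level was lowest in iMac. Its level was 0.269 and 0.271 CPM in iMac, 11.6 and 8.83 CPM in MCC and 16.0 and 40.2 CPM in MEF. The MEF libraries themselves lay far apart, and the groups did not overlap. In iMac it fell by 6.68 on the log2 scale against MEF (SE 0.61; adjusted p = 0.00132), a fold change of 103, and it fell by 5.89 without MEF library 2. In MCC the log2 fold change of -1.46 ± 0.46 just passed (adjusted p = 0.0457). That call was lost without MEF library 2 (log2 fold change -0.58) or any single library of MCC or iMac, with a replicate block and with the 5 CPM filter, at adjusted p from 0.0501 to 0.175. The last light chain of Slc3a2, Slc7a10, was listed at 0 counts in iMac and in MCC and at most at 0.464 CPM in MEF.

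Set per kilobase of annotated exon, so that levels can be compared between genes, the light chains of Slc3a2 changed places. Slc7a5 made up 13.1% and 14.7% of the summed level of the 6 light chains in iMac libraries, 19.4% and 18.4% in MCC and 72.5% and 71.2% in MEF. Slc7a8 made up 46.5% and 48.1% in iMac, 51.4% and 59.1% in MCC and 1.94% and 3.29% in MEF. Slc7a7 made up 21.6% and 20.5% in iMac, 13.5% and 10.6% in MCC and 2.43% and 1.05% in MEF. Slc7a6 held 17.7% ± 1.39 in iMac, 13.2% ± 2.5 in MCC and 19.8% ± 1.65 in MEF (SD, n = 2 each), the least change of the 4. The summed light-chain level was 83.9 ± 2.49 CPM per kb in iMac, 132 ± 18.9 in MCC and 54.3 ± 0.675 in MEF (SD, n = 2 each), and that of Slc3a2 was 67.9 ± 2.46, 87.0 ± 7.46 and 53.0 ± 8.42 in the same order. The ratio of heavy chain to light chains was 0.848 and 0.772 in iMac, 0.691 and 0.636 in MCC and 0.859 and 1.10 in MEF. With the longest transcript as length it was 0.850 and 0.777 in iMac, 0.708 and 0.655 in MCC and 0.97 and 1.23 in MEF. With 2 libraries a group, an exact two-sided permutation test cannot go below p = 0.333, so shares and ratios carry no test.

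**Figure D2:**
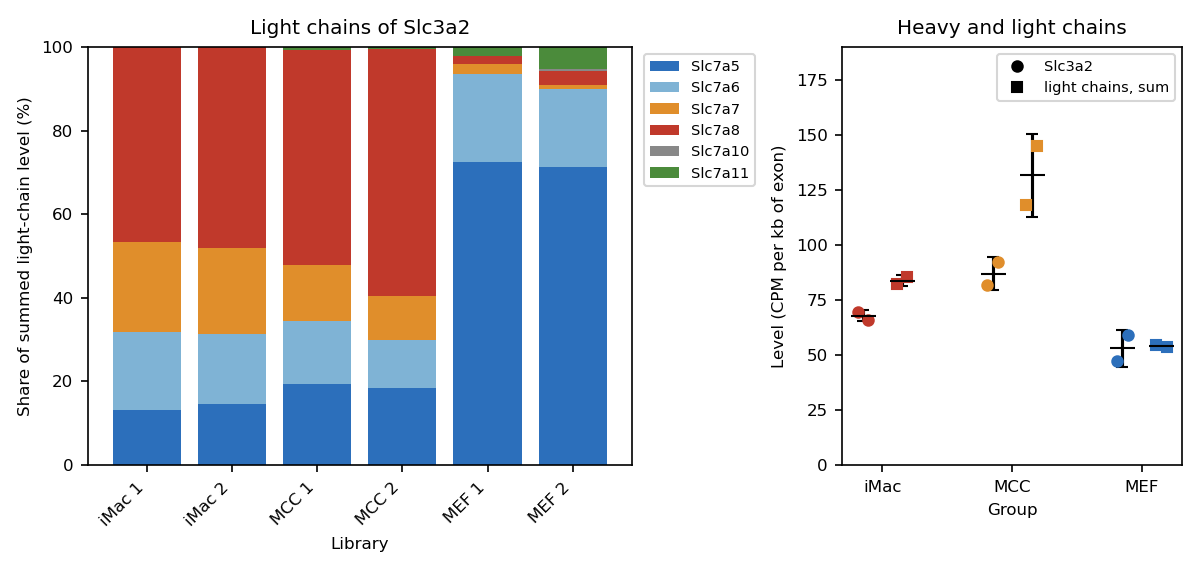
Left, share in percent of the summed light-chain level (CPM per kb of exon) held by each light chain of Slc3a2, in each of the 6 libraries. Right, level of Slc3a2 (circles) and of the summed light chains (squares) in CPM per kb, with a point per library, the mean as a bar and the SD as whiskers. Slc7a5 held over 70% in both MEF libraries with exon unions, and 68.8% and 67.1% with the longest transcript as length. Slc7a8 held the largest share in every iMac and MCC library with either length.

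The cationic carriers of the Slc7 family showed no common direction. Slc7a1 encodes CAT1, the widespread arginine importer, and had 90.5 and 99.0 CPM in iMac, 136 and 122 CPM in MCC and 105 and 79.8 CPM in MEF. Its log2 fold change was 0.04 ± 0.16 in iMac against MEF (adjusted p = 0.854) and 0.48 ± 0.16 in MCC against MEF (adjusted p = 0.0502); the second passed without MEF library 1 and with the 5 CPM filter (adjusted p 0.0161 to 0.0353). Slc7a2 encodes CAT2, the arginine importer that macrophages are known to induce on activation, and it was lower in iMac. It had 8.48 and 9.53 CPM in iMac, 17.0 and 17.3 CPM in MCC and 20.7 and 20.6 CPM in MEF. It fell by 1.20 on the log2 scale in iMac against MEF (SE 0.14; adjusted p = 0.00248), and the value in MCC against MEF was -0.27 ± 0.14 (adjusted p = 0.152; 0.021 with DESeq2). Slc7a3, CAT3, had 0.299 and 0.121 CPM in iMac, 1.09 and 0.428 CPM in MCC and 5.29 and 2.24 CPM in MEF. Its log2 fold change against MEF was -4.14 in iMac (adjusted p = 0.0104) and -2.30 in MCC (adjusted p = 0.0435). The iMac call was lost without either iMac library (adjusted p 0.0503 to 0.0709), and the MCC call without either MEF library, MCC library 2 or either iMac library (0.059 to 0.175).

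A few Slc7 genes were low everywhere and higher in the myeloid groups. Slc7a13 encodes a carrier of aspartate and glutamate known from kidney, and had 4.03 and 3.83 CPM in iMac, 1.17 and 0.482 CPM in MCC and 0.163 and 0.206 CPM in MEF. It rose by 4.39 ± 0.56 in iMac (adjusted p = 0.00314) and by 2.14 ± 0.55 in MCC (adjusted p = 0.0258) on the log2 scale. Its MCC call was lost when any single library except MCC library 2 was left out (adjusted p 0.0603 to 0.104). Slc7a4, a relative of the cationic carriers, had 6.18 and 5.52 CPM in iMac, 9.93 and 4.60 CPM in MCC and 1.84 and 2.22 CPM in MEF. Its rise was 1.53 ± 0.42 in iMac (adjusted p = 0.0293) and 1.84 ± 0.43 in MCC (adjusted p = 0.0193); the first was lost without any 1 of the MEF or iMac libraries (0.0944 to 0.117) and the second without either MEF library (0.0727 to 0.0863). An annotated neighbour shares 13.3% of its exonic bases. Slc7a14, another relative, reached 1.34 and 1.21 CPM in iMac and 2.24 and 0.589 CPM in MCC, with 0 and 0.103 CPM in MEF. It was called higher in both, with adjusted p = 0.0236 in iMac and 0.0238 in MCC, and lost the call without MEF library 1 or either iMac library in both comparisons and without MCC library 1 in MCC (0.0557 to 0.0856). Slc7a15 stayed at or under 0.598 CPM.

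Among the members called higher in iMac against MEF, Slc43a2 showed the largest fold change. It encodes LAT4, a facilitator that lets leucine, phenylalanine and other essential neutral amino acids leave or enter along their gradient. Its level was 662 and 641 CPM in iMac, 449 and 516 CPM in MCC and 16.7 and 21.3 CPM in MEF. No library of one group overlapped with another group's. The log2 fold change over MEF was 5.10 ± 0.18 in iMac (adjusted p = 0.000121) and 4.67 ± 0.18 in MCC (adjusted p = 0.000157), or 34.3-fold and 25.4-fold. An annotated neighbour shares 9.18% of its exonic bases. Its relative Slc43a1, LAT3, moved the other way, at 0.0299 and 0.0603 CPM in iMac, 1.07 and 0.294 CPM in MCC and 2.76 and 2.86 CPM in MEF. With 3 counts in iMac, it was 62.5-fold lower than in MEF with a 95% counting interval of 21.1 to 306 (adjusted p = 0.0047). In MCC it fell by 2.04 on the log2 scale (adjusted p = 0.0432), a call lost without either MEF library, MCC library 2 or either iMac library and with a replicate block (0.0511 to 0.138). Slc43a3, which carries purine bases, had 12.6 and 11.3 CPM in iMac, 30.1 and 30.6 CPM in MCC and 27.8 and 31.3 CPM in MEF. It fell by 1.31 in iMac against MEF (SE 0.13; adjusted p = 0.00171), while its log2 fold change in MCC against MEF was 0.04 ± 0.13 (adjusted p = 0.818).

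**Figure D3:**
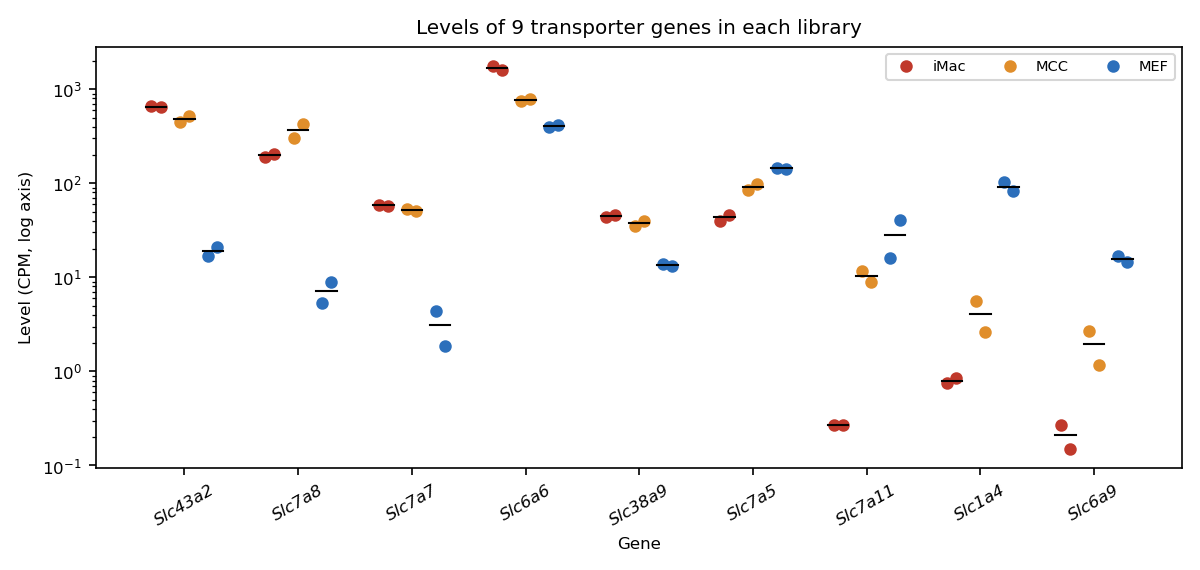
Level in CPM, on a log axis, of 9 transporter genes in each library, with iMac, MCC and MEF side by side for each gene and the group mean as a bar. Slc43a2, Slc7a8 and Slc7a7 lay at or above 51.1 CPM in every iMac and MCC library and at or below 21.3 CPM in MEF, and Slc7a11, Slc1a4 and Slc6a9 lay below 1 CPM in iMac.

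The glutamate carriers of the Slc1 family were low or without counts in the myeloid groups. Slc1a3 encodes GLAST, a glutamate importer known from astrocytes. It had no counts in iMac, 1.48 and 0.187 CPM in MCC and 94.7 and 271 CPM in MEF. It was at least 4108-fold lower in iMac than in MEF, set against a floor of 3 counts over the iMac libraries (adjusted p = 0.00572), and fell by 7.76 on the log2 scale in MCC (SE 1.20; adjusted p = 0.0103). Slc1a2, the glial glutamate importer GLT-1, had no counts in iMac, 0.130 and 0.0535 CPM in MCC and 11.4 and 28.0 CPM in MEF. It was at least 442-fold lower in iMac (adjusted p = 0.00266) and fell by 7.69 in MCC (SE 0.79; adjusted p = 0.00405). Both were higher in MEF library 2 than in MEF library 1. The summed neural and glial markers had 208 CPM in MEF library 1 and 195 CPM in MEF library 2, and their part in these levels was not tested. Slc1a1, the neuronal and epithelial importer EAAC1, had no counts in iMac, 0.078 and 0 CPM in MCC and 0.949 and 1.96 CPM in MEF. It was at least 32.6-fold lower in iMac than in MEF (adjusted p = 0.0129). In MCC it had 3 counts and was 37.1-fold lower, with counting bounds of 12.4 and 182 (adjusted p = 0.0208). Of its exonic bases, 31.9% also belong to another gene. Its calls were lost without MEF library 2 in both comparisons, without either iMac library in iMac and without MEF library 1 in MCC (adjusted p 0.0507 to 0.101). Slc1a6, known from Purkinje cells, had no counts in iMac, 0.676 and 0 CPM in MCC and 17.4 and 3.22 CPM in MEF. It was at least 225-fold lower in iMac than in MEF (adjusted p = 0.0321), a call lost without either MEF or either iMac library (0.0616 to 0.106), and the MCC comparison did not pass (adjusted p = 0.0758). It passed with a replicate block and without MCC library 1 (0.027 to 0.0336).

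The neutral exchangers Slc1a4 and Slc1a5, ASCT1 and ASCT2, parted. Slc1a4, which exchanges alanine, serine, cysteine and threonine, had 0.747 and 0.844 CPM in iMac, 5.54 and 2.65 CPM in MCC and 102 and 81.9 CPM in MEF. It fell by 6.85 on the log2 scale in iMac (SE 0.46; adjusted p = 0.000606) and fell by 4.49 in MCC (SE 0.40; adjusted p = 0.00159). The groups stood apart in every library. Slc1a5, a main importer of glutamine, had 92.4 and 104 CPM in iMac, 118 and 140.0 CPM in MCC and 44.5 and 51.7 CPM in MEF. It rose by 1.03 ± 0.14 in iMac (adjusted p = 0.00369) and by 1.42 ± 0.14 in MCC (adjusted p = 0.00201). Per kilobase of exon, Slc1a5 stood at 23.5 ± 1.96 CPM per kb in iMac, 30.9 ± 3.74 in MCC and 11.5 ± 1.22 in MEF, where Slc1a4 was above it at 23.5 ± 3.66 (SD, n = 2 each).

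Slc38a9, Slc38a7, Slc36a1 and Slc36a4 rose in both comparisons with MEF; they are set together here after their values were seen, and no list of lysosomal carriers was tested. Slc38a9 encodes the lysosomal arginine sensor and exporter that signals to mTORC1, the kinase complex that drives growth when amino acids are plentiful. It had 43.9 and 45.6 CPM in iMac, 35.3 and 39.8 CPM in MCC and 13.9 and 13.2 CPM in MEF. The rise was 1.72 ± 0.12 on the log2 scale in iMac (adjusted p = 0.000648) and 1.47 ± 0.12 in MCC (adjusted p = 0.0012). Slc38a7, which exports glutamine from lysosomes, had 108 and 109.5 CPM in iMac, 93.0 and 101 CPM in MCC and 40.0 and 40.5 CPM in MEF. It rose by 1.44 ± 0.09 in iMac (adjusted p = 0.000457) and by 1.27 ± 0.09 in MCC (adjusted p = 0.00081). Slc36a1, the proton-coupled exporter PAT1, had 78.4 and 79.8 CPM in iMac, 97.2 and 106 CPM in MCC and 48.2 and 47.7 CPM in MEF. It rose by 0.72 ± 0.09 in iMac (adjusted p = 0.00268) and by 1.08 ± 0.09 in MCC (adjusted p = 0.00121). Its relative Slc36a4, a carrier of proline and tryptophan, had 93.4 and 86.6 CPM in iMac, 72.3 and 75.7 CPM in MCC and 43.2 and 40.9 CPM in MEF. It rose by 1.10 ± 0.09 in iMac (adjusted p = 0.00104) and by 0.82 ± 0.09 in MCC (adjusted p = 0.00274). For these 4 genes the calls held in every alternative run, and the libraries of a group lay close together. The promoters of Slc36a1 and Slc38a7 are the ones shown above with E-boxes. Among the 9 members with an E-box, Slc7a14 was also called higher in both comparisons with MEF. Slc43a1 was called lower in both, and Slc1a6 was called lower in iMac. Slc1a7, Slc38a5, Slc6a3 and Slc6a16 were not tested. Slc38a9 and Slc36a4 were not among the 9. Only 40 of the 56 members had a promoter, and whether Slc38a9 and Slc36a4 did is not given here. Any part of the E-box in these levels was not tested.

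Slc36a2 behaved unlike its relatives. It encodes PAT2, a carrier of glycine and proline, and had 1.67 and 0.935 CPM in iMac, 21.9 and 9.95 CPM in MCC and 0.244 and 1.73 CPM in MEF. The level was high in MCC alone, with iMac and MEF overlapping. It rose by 4.01 ± 0.99 in MCC over MEF (adjusted p = 0.0231), a call lost without either iMac library (adjusted p = 0.0517), and had a log2 fold change of 0.40 ± 0.93 in iMac over MEF (adjusted p = 0.736). The drop in iMac against MCC was -3.61 ± 0.97 on the log2 scale and did not pass with edgeR (adjusted p = 0.191), but did with DESeq2 (adjusted p = 0.00168). Slc36a3 had at most 4 counts in any library.

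Among the sodium-coupled Slc38 carriers, those of the cell surface split by gene. Slc38a1, which imports glutamine, had 122 and 136 CPM in iMac, 126 and 137 CPM in MCC and 76.2 and 94.96 CPM in MEF. It rose by 0.60 ± 0.14 in iMac (adjusted p = 0.0177) and by 0.62 ± 0.14 in MCC (adjusted p = 0.018), and the iMac call was lost without either iMac library (0.0634 to 0.105). Slc38a2, the carrier that cells induce when short of amino acids, had 242 and 199.9 CPM in iMac, 233 and 194 CPM in MCC and 303 and 347 CPM in MEF. It fell by 0.56 in iMac (adjusted p = 0.0303) and by 0.61 in MCC (adjusted p = 0.0263), and both calls were lost without MEF library 2 or either iMac library, and the MCC call also without MCC library 2 (0.0533 to 0.191). Slc38a4, a carrier of small neutral amino acids that is imprinted in the mouse, had 0.119 and 0.0905 CPM in iMac, 7.52 and 0.321 CPM in MCC and 77.7 and 51.0 CPM in MEF. It fell by 9.21 in iMac (adjusted p = 0.01) and by 4.03 in MCC (adjusted p = 0.0474). The MCC value, with MCC library 1 left out, was -7.62, and with MCC library 2 left out it was -2.97; fibroblast markers differed between the same libraries, and their part was not tested. The iMac call was lost without either iMac library (0.0731 to 0.0762) and the MCC call without either MEF or either iMac library (0.097 to 0.137). Slc38a3, a glutamine carrier known from liver and brain, had no counts in iMac, 1 count in MCC and 3.63 and 6.65 CPM in MEF. It was at least 115-fold lower in iMac (adjusted p = 0.00343), and 393-fold lower in MCC with counting bounds of 70.1 and 15547 (adjusted p = 0.00438).

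Slc38a6 and Slc38a10, less studied members, behaved differently from each other. Slc38a6 had 48.1 and 51.1 CPM in iMac, 45.5 and 47.9 CPM in MCC and 17.1 and 12.5 CPM in MEF. It rose by 1.74 ± 0.18 in iMac (adjusted p = 0.00177) and by 1.66 ± 0.18 in MCC (adjusted p = 0.00247). Slc38a10 had 206 and 212 CPM in iMac, 198 and 179 CPM in MCC and 230.2 and 144 CPM in MEF. The MEF libraries spanned all the others, and the log2 fold changes of 0.16 ± 0.23 in iMac and 0.01 ± 0.23 in MCC did not pass (adjusted p = 0.575 and 0.973); without MEF library 1 both passed (0.0169 and 0.0388). Slc38a5, Slc38a8 and Slc38a11 stayed at or under 0.232 CPM in every library and were not tested.

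The taurine carrier had the highest level of all members in iMac. Slc6a6 imports taurine, a sulfur compound that cells use against osmotic and oxidative stress, and had 1762 and 1595 CPM in iMac, 759 and 781 CPM in MCC and 399 and 416 CPM in MEF. The 3 groups did not overlap. It rose by 2.04 ± 0.11 on the log2 scale in iMac (adjusted p = 0.000353) and by 0.92 ± 0.11 in MCC (adjusted p = 0.00323). Per kilobase of exon it made up 33.1% ± 1.36 of the summed level of all members in iMac, 16.2% ± 0.258 in MCC and 12.6% ± 0.117 in MEF (SD, n = 2 each). The summed level itself was 612 and 587 CPM per kb in iMac, 547 and 575.5 in MCC and 377 and 388 in MEF. Behind Slc6a6 in iMac came Slc3a2, at 67.9 ± 2.46 CPM per kb, and Slc43a2, at 64.8 ± 1.46, and then Slc7a8, at 39.7 ± 2.13. The libraries of Slc3a2 and Slc43a2 did not overlap, but their order depends on the length used. Their exon unions have 3529 and 10042 bases, and their longest transcripts 2813 and 7145 bases. With the longest transcripts Slc43a2 would stand above Slc3a2. The orders given for MCC and MEF also rest on exon unions. In MCC, Slc6a6 (91.0 ± 1.86) overlapped with Slc3a2 (87.0 ± 7.46), and Slc3a2 with Slc7a8 (73.2 ± 17.6). In MEF, Slc3a2 (53.0 ± 8.42) and Slc6a6 (48.2 ± 1.42) overlapped, followed by Slc7a5 (39.7 and 38.3) and Slc38a2 (34.3 and 39.2), which also overlapped.

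Slc6a8 and Slc6a9 fell in both comparisons with MEF. Slc6a8, the creatine importer, had 80.7 and 73.6 CPM in iMac, 91.5 and 75.0 CPM in MCC and 116 and 119 CPM in MEF. It fell by 0.61 in iMac (adjusted p = 0.0122) and by 0.50 in MCC (adjusted p = 0.0247), and lost the iMac call without MEF library 2 or either iMac library (0.0668 to 0.101) and the MCC call when any single library except MCC library 1 was left out (0.0633 to 0.233). Slc6a9, the glycine importer GlyT1, had 0.269 and 0.151 CPM in iMac, 2.70 and 1.18 CPM in MCC and 17.0 and 14.7 CPM in MEF. It fell by 6.22 in iMac (SE 0.59; adjusted p = 0.00144) and fell by 3.03 in MCC (SE 0.48; adjusted p = 0.00692). Neighbouring genes share 30.25% of its exonic bases, so its level is uncertain. The groups did not overlap in any library.

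Several carriers of neurotransmitters and of neural neutral amino acids had their highest levels in MEF. Slc6a15, a carrier of branched-chain amino acids and proline known from brain, had 0.119 and 0 CPM in iMac, 0.364 and 0.321 CPM in MCC and 5.69 and 11.3 CPM in MEF. It fell by 7.07 in iMac (adjusted p = 0.00376) and fell by 4.62 in MCC (adjusted p = 0.00844). Slc6a17, a vesicular carrier of neurons, had 0.149 and 0.0302 CPM in iMac, 2.11 and 0.134 CPM in MCC and 10.7 and 5.41 CPM in MEF. It fell by 6.43 in iMac (adjusted p = 0.0186), a call lost without MEF library 1 or either iMac library (0.0607 to 0.11), and did not pass in MCC (adjusted p = 0.0977). It passed there without MCC library 1, with DESeq2 and with a replicate block (0.00818 to 0.0417). Slc6a11, a GABA importer, had no counts in iMac or MCC and 0.298 and 1.29 CPM in MEF, at least 17.9-fold lower in iMac (adjusted p = 0.044) and at least 20.4-fold lower in MCC (adjusted p = 0.044). Both Slc6a11 calls were lost without MEF library 1 or either iMac library, and the MCC call also without either MCC library (0.0541 to 0.11). The neural and glial markers given above were also highest in MEF; their part in these results was not tested.

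Slc6a12, the betaine and GABA carrier BGT1, was high in a single MCC library. It had 6.09 and 1.93 CPM in iMac, 22.4 and 0.562 CPM in MCC and 0.515 and 0.206 CPM in MEF. The log2 fold change in MCC against MEF was 4.99 ± 1.83 with both MCC libraries and did not pass (adjusted p = 0.0699). It was 0.65 with MCC library 1 left out and 6.08 with MCC library 2 left out (adjusted p = 0.00693). It passed with DESeq2 as well (adjusted p = 0.00996). In iMac against MEF it was 3.47 ± 1.75 (adjusted p = 0.147; 0.016 to 0.0183 with either MCC library left out). Its neighbour on chromosome 6, Slc6a13, a GABA carrier, followed the same order among the MCC libraries at a far lower level, with 1.12 CPM in library 1 and 0.161 CPM in library 2. Slc6a2, the noradrenaline importer, had no counts in iMac and at most 0.412 CPM elsewhere, at least 7.92-fold lower in iMac than in MEF (adjusted p = 0.0401), a call lost with a replicate block and without either MEF or either iMac library (0.0751 to 0.142). The remaining Slc6 genes, Slc6a3, Slc6a4, Slc6a7, Slc6a14, Slc6a16 and Slc6a19, stayed at or under 0.386 CPM in every library and were not tested, as was Slc1a7, which had at most 7 counts.

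**Figure D4:**
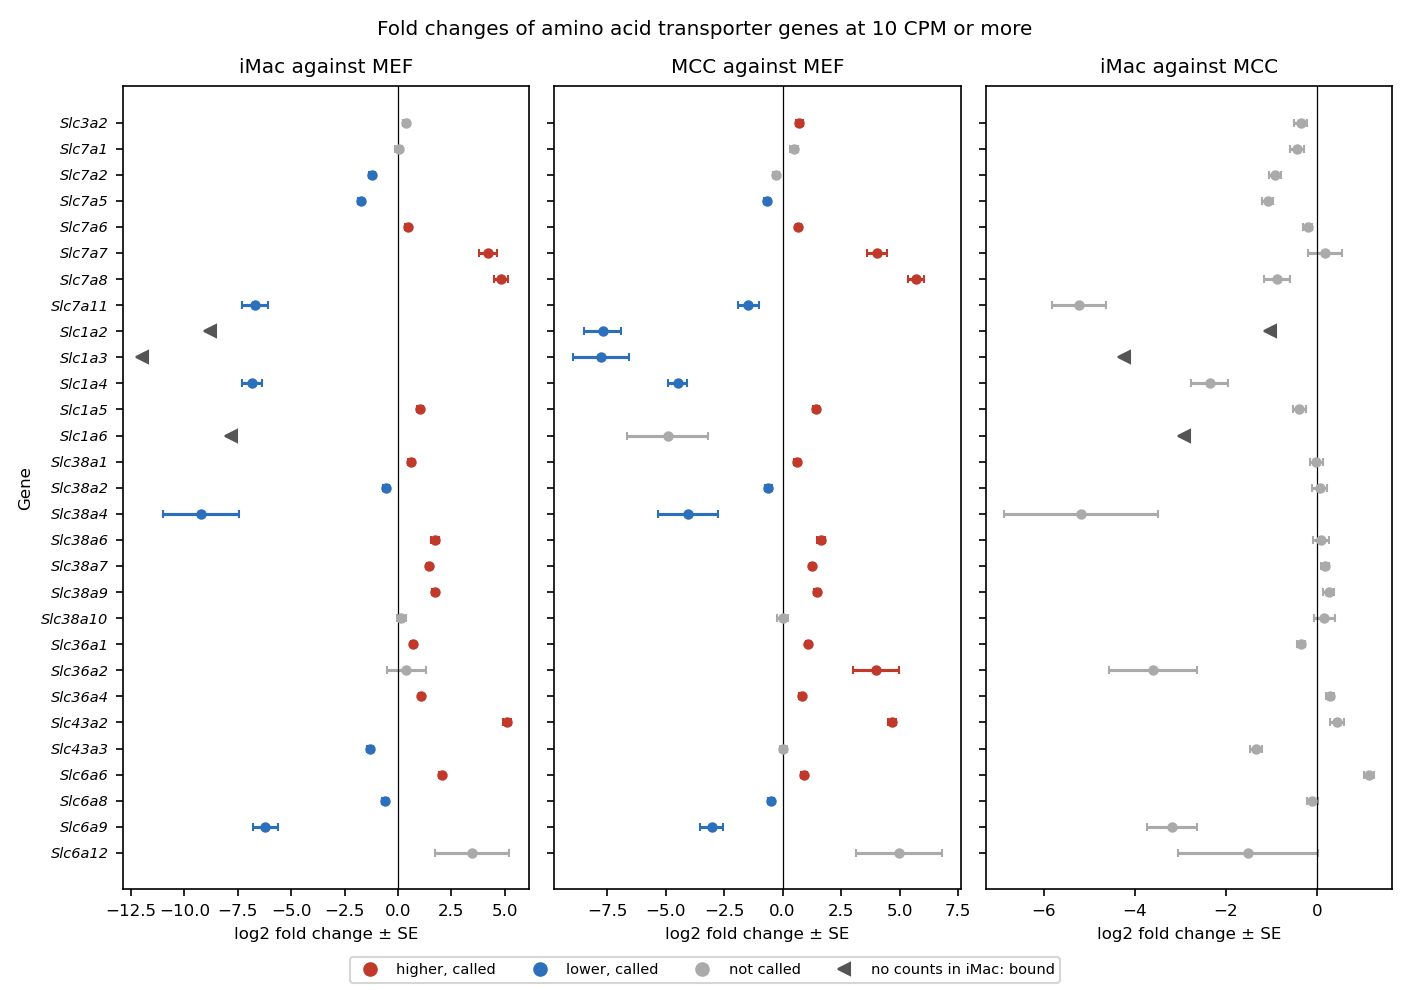
Log2 fold change with its SE for the 29 transporter genes at 10 CPM or more in at least 1 group, in the 3 comparisons, each panel with its own horizontal scale. Coloured points were called at an adjusted p under 0.05, grey points were not, and triangles stand at the bound for genes with no counts in iMac. Slc43a2, Slc7a8 and Slc7a7 lie between 4.05 and 5.69 in the comparisons with MEF, and none of the 29 was called in iMac against MCC.

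The direct comparison of iMac with MCC asks how the macrophages differed from the myeloid-like cells. No member passed with edgeR, and the lowest adjusted p among them, 0.0756, was shared by Slc6a6, Slc7a11, Slc7a5 and Slc43a3. Slc6a6 was 2.18-fold higher in iMac (log2 fold change 1.12 ± 0.11). Slc7a11 stood at a log2 fold change of -5.22 ± 0.58, Slc43a3 at -1.35 ± 0.13 and Slc7a5 at -1.09 ± 0.13, each with no overlap between the iMac and MCC libraries. DESeq2 called these 4 with adjusted p = 3.97e-33 for Slc6a6, 2.87e-15 for Slc7a11, 5.84e-19 for Slc43a3 and 2.9e-12 for Slc7a5. It also called Slc7a13, Slc43a2 and Slc36a4 higher and Slc1a3, Slc38a4, Slc43a1, Slc36a2, Slc6a9, Slc1a4, Slc7a2, Slc7a8 and Slc36a1 lower in iMac, among 2560 genes over the whole table. Leaving out MCC library 2 gave 1 higher and 9 lower with edgeR, and leaving out any other library gave 0. Log2 fold changes close to 0 were seen for Slc38a1 (-0.02 ± 0.14), Slc38a2 (0.05 ± 0.16), Slc38a6 (0.09 ± 0.17), Slc6a8 (-0.11 ± 0.12), Slc38a10 (0.15 ± 0.23) and Slc7a7 (0.17 ± 0.37).

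Atf4 is the regulator that is translated when uncharged tRNA builds up, and it drives the response to amino acid shortage. Of 23 genes of this response tested, 3 were called higher and 17 lower in iMac against MEF, with a median log2 fold change of -1.52, and 4 higher and 11 lower in MCC against MEF, with a median of -0.86. The medians over all genes were -0.06 and -0.05. The share called was 87.0% of the list in iMac, where 57.6% of all genes were called, and 65.2% in MCC, where 53.0% were. The number called was 12 without iMac library 1 and 11 without iMac library 2 in the first comparison, and 7 without MEF library 1 and 9 without either iMac library in the second. Chac1, which degrades glutathione, averaged 0.105 ± 0.0219 CPM in iMac, 1.40 ± 0.625 CPM in MCC and 10.3 ± 9.71 CPM in MEF (SD, n = 2 each). It fell by 6.57 in iMac (adjusted p = 0.0064) and by 2.87 in MCC (adjusted p = 0.0377). The first call was lost without either iMac library (0.052 to 0.0547), and the second with a replicate block and without any single library except MEF library 2 (0.0731 to 0.119). Atf3, an early stress factor, went against the list at 213 ± 15.4 CPM in iMac, 104 ± 3.84 CPM in MCC and 14.8 ± 13.5 CPM in MEF, a rise of 3.84 in iMac (adjusted p = 0.00966) and of 2.81 in MCC (adjusted p = 0.0239). Its MCC call was lost without either iMac library (0.0557 to 0.0559). Eif2ak4, the kinase Gcn2 that senses uncharged tRNA, had 105 and 113 CPM in iMac, against 45.7 and 42.9 CPM in MEF, a rise of 1.30 (adjusted p = 0.000714).

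Synthetases join amino acids to tRNA. Of 19 cytosolic aminoacyl-tRNA synthetases tested, 5 were higher and 7 lower in iMac and 6 higher and 4 lower in MCC, each against MEF. The share called was 63.2% of the list in iMac, where 57.6% of all genes were called, and 52.6% in MCC, where 53.0% were, with median log2 fold changes of -0.07 and 0.12 beside -0.06 and -0.05 over all genes. The iMac number was 5 in all without either iMac library. Aars, the alanine enzyme, averaged 94.3 ± 1.69 CPM in iMac, 159 ± 8.03 CPM in MCC and 354 ± 55.4 CPM in MEF, and fell by 1.91 in iMac (adjusted p = 0.000696) and fell by 1.15 in MCC (adjusted p = 0.00289) on the log2 scale. Qars, the glutamine enzyme, averaged 268 ± 9.58 CPM in iMac, 246 ± 3.93 CPM in MCC and 139 ± 13.7 CPM in MEF, and rose by 0.94 (adjusted p = 0.00213) and 0.82 (adjusted p = 0.00373).

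Of 35 genes tested that tell mTORC1 about amino acids, 12 were higher and 8 lower in iMac and 8 higher and 7 lower in MCC, each against MEF. The share called was at or below that of all genes, 57.1% in iMac beside 57.6% and 42.9% in MCC beside 53.0%, with median log2 fold changes of 0.07 and -0.06 beside -0.06 and -0.05. The iMac number was 8 in all without iMac library 1 and 10 without iMac library 2. Sesn1, a member of the sestrin family of leucine sensors, averaged 530 ± 61.5 CPM in iMac, 318 ± 13.6 CPM in MCC and 26.2 ± 4.21 CPM in MEF, and rose by 4.34 (adjusted p = 0.000158) and 3.60 (adjusted p = 0.000289) on the log2 scale. Sesn3, its relative, averaged 5.96 ± 0.699 CPM in iMac, 13.0 ± 3.77 CPM in MCC and 178 ± 32.8 CPM in MEF, and fell by 4.90 in iMac (adjusted p = 0.000425) and fell by 3.78 in MCC (adjusted p = 0.000923). Fnip2, a partner of the lysosomal regulator folliculin, averaged 178 ± 2.09 CPM in iMac, 112 ± 13.5 CPM in MCC and 38.6 ± 1.46 CPM in MEF, and rose in both (adjusted p = 0.000307 and 0.000962).

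The cysteine and glutathione list had 17 genes tested. It is not limited to synthesis and also holds Nqo1, Nfe2l2, Hmox1 and Ggt5. Against MEF, 2 of the 17 were higher and 9 lower in iMac, with a median log2 fold change of -0.73. In MCC, 3 were higher and 4 lower against MEF, with a median of -0.0013. The medians over all genes were -0.06 and -0.05. The share called was 64.7% of the list in iMac, where 57.6% of all genes were called, and 41.2% in MCC, where 53.0% were. The iMac number was 5 in all without either iMac library. Nqo1, a quinone reductase under the control of the antioxidant regulator Nrf2, had 0.508 and 0.694 CPM in iMac and 33.9 and 56.1 CPM in MEF (adjusted p = 0.00824; 0.0614 to 0.0655 without either iMac library), while Nfe2l2, which encodes Nrf2, had 216 and 206 CPM in iMac and 116 and 151 CPM in MEF, a rise of 0.66 (adjusted p = 0.0245) that was lost without MEF library 1 or either iMac library (0.064 to 0.112). Cbs, which makes the cysteine precursor cystathionine, averaged 0.345 ± 0.0613 CPM in iMac, 0.501 ± 0.00999 CPM in MCC and 13.6 ± 10.7 CPM in MEF. It fell in both (adjusted p = 0.0041 and 0.00584). Ggt5 and Hmox1 were among the 3 genes called higher in MCC, beside 4 called lower. Ggt5 had 24.3 and 17.7 CPM in MCC and 1.36 and 1.19 CPM in MEF (adjusted p = 0.000684). Hmox1 had 965 and 574 CPM in MCC and 238 and 300 CPM in MEF (adjusted p = 0.0108). Its log2 fold change was 1.52, and 1.37 without MEF library 1.

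Of 16 enzymes of glutamine, glutamate and branched-chain amino acids tested, 7 were higher and 5 lower in iMac and 7 higher and 3 lower in MCC, each against MEF. The share called was 75% of the list in iMac, where 57.6% of all genes were called, and 62.5% in MCC, where 53.0% were, with median log2 fold changes of 0.33 and 0.32 beside -0.06 and -0.05 over all genes. The number was 5 in all without either iMac library in iMac, and 6 without MCC library 2 or either iMac library in MCC. Bcat1, the cytosolic enzyme that starts leucine breakdown, averaged 4.08 ± 0.834 CPM in iMac, 18.3 ± 8.33 CPM in MCC and 86.9 ± 31.2 CPM in MEF, and fell by 4.41 in iMac (adjusted p = 0.00201) and fell by 2.25 in MCC (adjusted p = 0.0113). Bcat2, its mitochondrial counterpart, averaged 96.3 ± 1.21 CPM in iMac, 74.0 ± 9.10 CPM in MCC and 28.3 ± 2.53 CPM in MEF, and rose by 1.77 (adjusted p = 0.000742) and 1.39 (adjusted p = 0.00169). Glul, which makes glutamine from glutamate, averaged 1003 ± 27.9 CPM in iMac, 601 ± 125 CPM in MCC and 187 ± 118 CPM in MEF, with adjusted p = 0.0106 in iMac and 0.0319 in MCC. Both Glul calls were lost without either iMac library, and the MCC call also without MCC library 2 (0.0511 to 0.0695).

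Of 18 carriers of amino acids or peptides outside these 7 families tested, 7 were higher and 6 lower in iMac and 7 higher and 5 lower in MCC, each against MEF. The share called was 72.2% of the list in iMac, where 57.6% of all genes were called, and 66.7% in MCC, where 53.0% were, with median log2 fold changes of 0.08 and 0.15 beside -0.06 and -0.05 over all genes. Slc15a3, a lysosomal peptide and histidine exporter of immune cells, averaged 136 ± 4.12 CPM in iMac, 92.2 ± 20.5 CPM in MCC and 0.0806 ± 0.0776 CPM in MEF, and rose by 10.68 (adjusted p = 0.000213) and 10.12 (adjusted p = 0.000289) on the log2 scale. Slc16a10, a facilitator of aromatic amino acids, averaged 147 ± 15.3 CPM in iMac, 123 ± 12.3 CPM in MCC and 4.86 ± 2.09 CPM in MEF, and rose by 4.91 (adjusted p = 0.000677) and 4.66 (adjusted p = 0.000956). Slc15a2, a peptide importer of the cell surface, had 1 count in iMac and was 1265-fold lower than in MEF with counting bounds of 227 and 50003 (adjusted p = 0.00259), and fell by 7.26 in MCC (adjusted p = 0.00406).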

How the data were processed

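Per the submitters' processing notes, reads were aligned with STAR to mm10 and counted with featureCounts, with no versions given. The sources used here do not give the annotation, the strand setting or the treatment of multi-mapping reads. RNA was extracted with Trizol and made into mRNA libraries, per the labels' protocols. The authors deposited raw counts per gene symbol, whole numbers used here as they stand. Without the strand setting, reads of overlapping genes cannot be told apart, and the exonic bases that members share with other genes were taken from GENCODE M21 (GRCm38, the assembly of mm10). All 56 symbols matched 1 gene there. Lengths are unions of annotated exons.

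Genes were tested on the whole table with edgeR 4.0.16 in R 4.3.3: filterByExpr (18613 genes kept, 11832 removed), TMM scaling, and a two-sided quasi-likelihood test with a term for group over the 6 libraries (3 residual degrees of freedom). Benjamini-Hochberg adjustment ran over every gene tested. Fold changes carry an SE taken from the F statistic and a prior count of 0.125. The floor is 3 counts over a group; counting intervals are exact, at 95%, and cover counting error only. Alternatives were median-ratio scaling, DESeq2 1.42.0, no filter, 5 CPM in 2 libraries, a replicate block and leaving out each library. Library totals without scaling and the longest transcript as length were added after the data were seen. A fit without a library leaves 1 in that group, assumed to vary like the others. The pipeline was tested on simulated data. Members, lists and motifs were chosen with earlier results of these data known. Members at 10 CPM or more, or at 1 CPM or more and called, are given by library, and others by range; of each further list, the called genes at 10 CPM or more with the 2 largest rises and 2 largest falls were eligible, and not all are reported. The values of 1 member are not reported here, though it stays in the fits and counts.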

Additional observations from a re-analysis of the deposited data

How the results depend on the processing

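With 2 libraries a group, calls near the threshold depend on single libraries. The 5 CPM filter removed low genes and left 13 members called lower in iMac against MEF and 9 in MCC against MEF. Without 1 library, members called ranged from 22 to 38 in iMac against MEF (11 to 16 higher, 11 to 22 lower) and from 22 to 30 in MCC against MEF (14 to 19 higher, 7 to 15 lower). In iMac against MCC they ranged from 0 to 10 (0 to 1 higher, 0 to 9 lower), all 10 without MCC library 2; DESeq2 called 16 (4 higher, 12 lower), and edgeR with no filter called 4 (1 higher, 3 lower) and 4 genes of the cysteine and glutathione list. DESeq2 called 13 stress response genes, 3 synthetases, 10 sensing genes, 9 cysteine and glutathione genes, 4 glutamine and branched-chain enzymes and 5 other carriers there; without 1 library edgeR called 0 to 4, 0, 0 to 1, 0 to 7, 0 to 1 and 0 to 1 in that order. The same lists ranged from 11 to 21, 5 to 13, 8 to 20, 5 to 12, 5 to 12 and 10 to 14 in iMac against MEF, and from 7 to 17, 7 to 13, 10 to 16, 7 to 7, 6 to 10 and 11 to 13 in MCC against MEF. Shares of all genes are not given for these alternatives, so the counts cannot be read as particular to the members or lists. Beyond calls that a left-out library ended, the cause of these moves was not tested.

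Changes of sign were seen for members whose log2 fold change did not pass with all libraries. With median-ratio scaling and with DESeq2, Slc7a1 in iMac against MEF was -0.0273 and -0.0238, and in MCC against MEF Slc38a10 was -0.0636 and -0.0617 and Slc43a3 was -0.0312 and -0.03. Without 1 library, the log2 fold change in iMac against MEF ranged from -0.3953 to 2.3786 for Slc36a2 (also -0.0596), from -0.1625 to 0.5501 for Slc38a10 and from -0.1715 to 0.2569 for Slc7a1 (also -0.0135). In MCC against MEF it ranged from -0.2316 to 0.3968 for Slc38a10 (also -0.0532) and from -0.0381 to 0.1826 for Slc43a3. In iMac against MCC it ranged from -0.1115 to 0.0561 for Slc38a1, -0.0547 to 0.2012 for Slc38a10, -0.2107 to 0.183 for Slc38a2 (also -0.0347 and -0.0922), -0.009 to 0.1357 for Slc38a6, -2.6148 to 2.8063 for Slc6a12, -0.381 to 0.0151 for Slc6a8, -0.9434 to 1.0854 for Slc7a14 and -0.8981 to 0.3208 for Slc7a4. A member that the filter removed in an alternative has no value there, as for Slc6a11 without MEF library 2. Library totals without scaling moved the median of all genes in iMac against MCC to -0.16, against -0.02.

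Deviations of same-numbered libraries correlated at -0.00688 between iMac and MEF, 0.00226 between iMac and MCC and 0.131 between MCC and MEF. A correlation over all genes tested cannot show whether replicate numbers pair the libraries. Summed fibroblast markers were higher in library 1 than in library 2 in MEF (19420 and 8103 CPM), MCC (868 and 76.0 CPM) and iMac (14.5 and 11.5 CPM). With a replicate block, 35 members were called in iMac against MEF (15 higher, 20 lower), 33 in MCC against MEF (17 higher, 16 lower) and 0 in iMac against MCC.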
